A study of Mus musculus with 8 samples.

Results

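Mesothelial nuclei, the nuclei of the epithelial sheet that covers the heart, were selected from single-nucleus RNA-seq (snRNA-seq) of whole hearts of 4 wild-type (WT) and 4 Tafazzin-knockout (Taz-KO) male mice. The mice were 9 weeks old, and each heart gave 1 library. Taz-KO mice are a model of Barth syndrome, an X-linked disorder of the mitochondrial lipid cardiolipin, and lack the transacylase that remodels it. The strain and the deleted part of Taz are not given in the sources used here, and no treatment or further allele is named for either group. A barcode was kept with at least 800 UMIs (counted RNA molecules) outside the mitochondrial genes, which 167504 of 169193 barcodes had. It was called mesothelial if 7 marker genes, Muc16, Gpm6a, Upk1b, Wt1, Bnc1, Upk3b and Lrrn4, took at least 10 times the share of its UMIs that they took in the whole library, with at least 4 UMIs on at least 2 of them. Ryr2 and Ttn, of cardiomyocytes, were allowed at most 1 times their library share, and F13a1, Mrc1 and Cd163, of macrophages, at most 2 times. These conditions left 2463 mesothelial nuclei.

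The mesothelium of the heart, the epicardium, is a single layer of epithelial cells that lines the pericardial cavity and secretes lubricating fluid. In the embryo, epicardial cells that express Wt1 and Tbx18 undergo epithelial-mesenchymal transition and supply cardiac fibroblasts and mural cells, and they make retinoic acid and growth factors. In the adult, the layer is largely quiescent and is known to take up parts of this program again after injury.

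The WT mice 4686, 4909, 5355 and 5356 gave 226, 385, 302 and 253 mesothelial nuclei, and the Taz-KO mice 4685, 4910, 5300 and 5301 gave 19, 637, 536 and 105. Values per mouse are given in this order throughout. Libraries held between 20025456 and 348080773 UMIs, and the UMIs summed over the mesothelial nuclei of a mouse ranged from 329300 to 4080932. Taz-KO mice 4685 and 5301 had 3475 and 3899 kept barcodes, against 21190 or more in each other library. Mouse 4685 also stood apart within its mesothelial nuclei, which had a median of 15235 UMIs, 5.46 times that of its kept barcodes. In the other 7 libraries, the ratio was 1.14 to 1.40. Mitochondrial genes took a median of 1.86% to 25.2% of the UMIs of mesothelial nuclei, lowest in mouse 5301. No barcode was that of a mesothelial nucleus in more than 1 library, while 3306 kept barcodes were shared, summed over all pairs of libraries.

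The genes of the rule chose the nuclei, so their levels are a description. Muc16 encodes a large surface mucin, and Gpm6a a membrane glycoprotein. Levels are in UPM, the UMIs of a gene per 1000000 non-mitochondrial UMIs, summed over the mesothelial nuclei of a mouse. Muc16 was at 1595, 1553, 2406 and 1828 in WT mice and at 2499, 1595, 1614 and 2600.1 in Taz-KO mice. In all other kept barcodes, the median over mice was 17.1, and the median ratio was 108-fold. Gpm6a was the most abundant gene of the rule, at a median of 2489.8 UPM against 54.4.

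The transcription factor genes followed at lower levels. Wt1, the zinc finger factor that defines the embryonic epicardium, had a median of 476 UPM against 13.2 in other barcodes. Bnc1, which encodes the zinc finger protein basonuclin 1, had 162 against 1.85. The uroplakins Upk1b and Upk3b, membrane proteins also found in the bladder lining, stood at 359 against 5.37 and at 334 against 18.7. Lrrn4, a leucine-rich repeat protein known from mesothelium, had 145 against 5.08. Upk3b was at 211, 227, 370 and 297 in WT mice and at 859, 249, 370 and 393 in Taz-KO mice. Its highest value, and that of Lrrn4 (431), were those of mouse 4685, whose threshold was also the highest.

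A UMI of Muc16 was found in 95.3% of mesothelial nuclei, of Gpm6a in 98.6%, of Wt1 in 86.1%, of Bnc1 in 58.2% and of Lrrn4 in 46.3%. In fibroblast barcodes, which should lack these genes, the shares were 6.89%, 19.1%, 4.41%, 0.858% and 3.47%, and in endothelial barcodes 7.32%, 38.6%, 14.8%, 1.07% and 3.64%. Fibroblast (n = 36577) and endothelial (n = 13036) barcodes were chosen by rules of the same kind. Barcodes called mesothelial were left out of both, so their low shares are in part fixed by the rule. The median number of UMIs per mouse was 3457 to 15235 in mesothelial nuclei, 2763.5 to 6067 in fibroblast barcodes and 2203 to 7405 in endothelial barcodes. The endothelial share for Wt1, 14.8%, was above the 4.41% of fibroblast barcodes.

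The threshold differed between libraries because it was set by each library's own share of the 7 genes. It was 12.96, 17.7, 21.7 and 15.7 UMIs per 10000 in WT mice and 47.9, 20.02, 31.4 and 23.4 in Taz-KO mice. This threshold was higher in Taz-KO mice 4685, 5300 and 5301 than in each WT mouse, and within the WT range in mouse 4910. Just inside it, at 10 to 12 times the library share, were 242 mesothelial nuclei. Just outside it, at 8 to 10 times, were 306 barcodes. The 25 mesothelial genes listed outside the rule summed to 4023 UPM inside, 3409.6 outside, 6459.6 in all mesothelial nuclei and 763 in all other barcodes. Mouse 5300 gave 118 of the 242, with 5006 inside and 4891 outside. The gap was wider in WT mice 4909 (4089 and 2467) and 5356 (2635 and 1817) and in Taz-KO mouse 4910 (3727 and 2951). WT mouse 4686 had 2008 and 1917, and the order was reversed in WT mouse 5355 (3012 and 3193) and, from 3 barcodes each, in Taz-KO mouse 5301 (3772 and 5016). Mouse 4685 had 2 inside (7289) and 3 outside (6170.4).

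The label was checked against genes that the rule did not use. Of the 25 listed, all but Aldh1a1, C3, Podxl, Slpi, Tcf21 and Calb2 were at least 2 higher on the log2 scale in mesothelial nuclei than in other barcodes, as a median over mice. Across the 9264 genes with at least 5 UPM in each mouse, 427 were this much higher and the median log2 ratio was 0.03. Pkhd1l1, a fibrocystin-like membrane protein, had 1737 UPM, 32.0 times the level of other barcodes. Sema3d, a guidance cue of the embryonic epicardium, had 861 (26.6 times), and the matrix protein gene Efemp1 had 731 (19.7 times). Rspo1, an enhancer of Wnt signaling, was 47.8 times as high, and the polarity gene Crb2 55.7 times. Msln, which encodes mesothelin, a surface protein of mesothelial cells, had 141 UPM, 16.7 times the level elsewhere.

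Embryonic epicardial genes were present too. Tbx18, a T-box factor of epicardial progenitors, was 10.8 times as high as in other barcodes. Aldh1a2, which makes retinoic acid, was 13.8 times as high, and Ezr, a linker of membrane and actin in microvilli, 10.5 times. Complement C3 (2.69 times) and Aldh1a1 (1.88 times) were shared more widely. Tcf21 (0.861 times) and Podxl (0.722 times) were not higher in mesothelial nuclei, and Calb2, the calretinin gene used for human mesothelium, had no UMI in mesothelial nuclei of any mouse. With these exceptions, the listed genes stood above other barcodes.

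**Figure D1:**
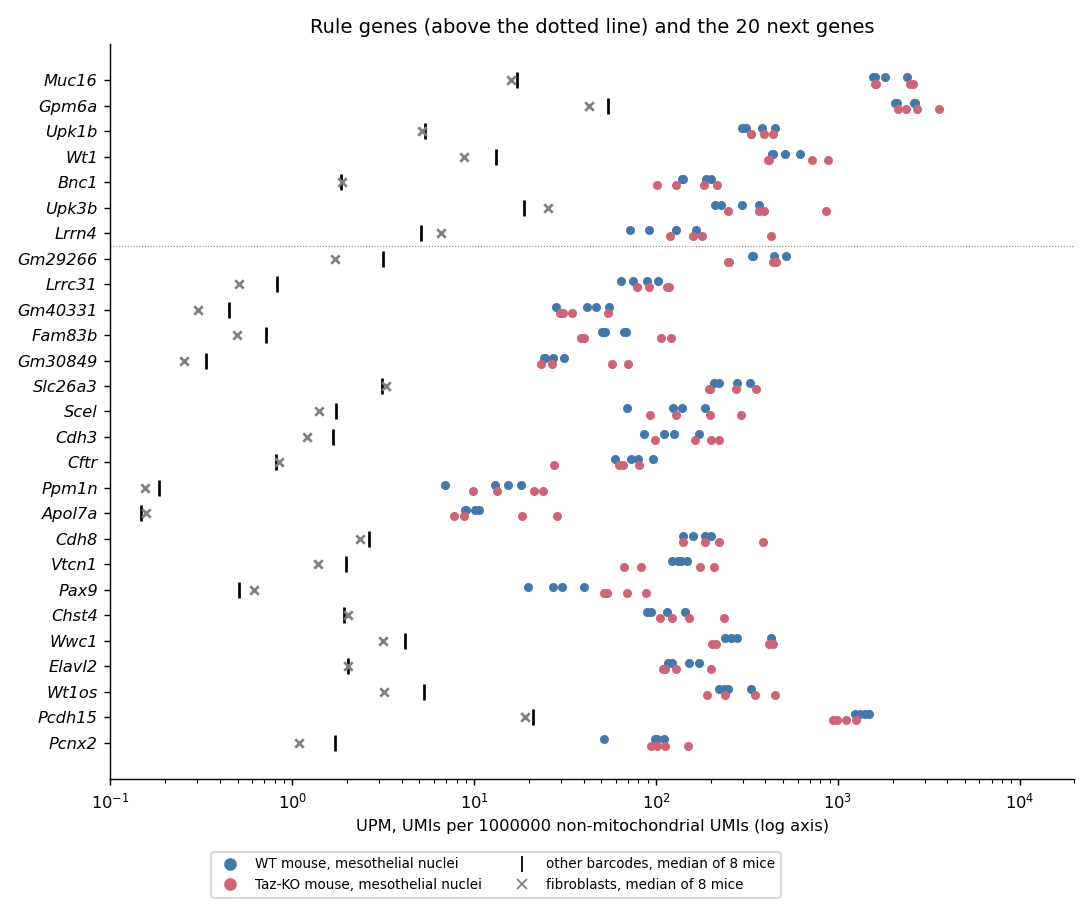
Levels of the 7 rule genes and of the 20 genes outside the rule with the highest ratio to other barcodes, in UPM on a log axis. Each dot is the sum over mesothelial nuclei of 1 mouse, bars and crosses are medians over 8 mice in other and in fibroblast barcodes, and all dots lie above both marks.

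Among the 20 genes outside the rule that stood highest above other barcodes, the median ratio ran from 58.3-fold to 123-fold. Ion transport genes were among them. Slc26a3, a chloride and bicarbonate exchanger, had 248 UPM (86.4-fold), and Cftr, the chloride channel of cystic fibrosis, had 69.6 (78.3-fold). Adhesion genes were Cdh3 (145, 85.8-fold), Cdh8 (186, 67.5-fold) and Pcdh15 (1247, 58.8-fold), the last a cadherin known from hair cells of the inner ear. Scel, a protein of stratified epithelia, had 134 (86.2-fold), and the immune checkpoint ligand gene Vtcn1 had 135 (66.0-fold). Pax9, a paired box transcription factor of foregut and skeleton, had 46.1 (64.5-fold). Wwc1 (267, 60.6-fold), also called KIBRA, acts upstream of the Hippo kinases.

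Noncoding genes were also in the same group, and their share among all ranked genes was not examined. Gm29266, a lincRNA, had the highest ratio of all, at 392 UPM and 123-fold. Wt1os, the antisense neighbour of Wt1, had 245 (59.4-fold). Whether the counts used strand is not given in the sources used here, and the 2 genes do not overlap in the annotation. The remaining genes were Lrrc31 (116-fold), Gm40331 (93.9-fold), Fam83b (93.4-fold), Gm30849 (89.5-fold), Ppm1n (75.9-fold), Apol7a (72.3-fold), Chst4 (63.7-fold), Elavl2 (60.1-fold) and Pcnx2 (58.3-fold). Of these 20 genes, Pax9 was the one whose mice did not overlap between genotypes, beside 4.36% of all 12277 genes tested. Its level was 30.04 ± 9.001 CPM in WT and 66.1 ± 17.7 CPM in Taz-KO (SD, n = 4 each), and the difference did not pass adjustment (edgeR adjusted p = 0.361).

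The promoters of 3 genes are shown because Upk3b and Bnc1 belong to the rule and Synpr is a gene that changed in these nuclei. The sequences are the 250 bases before the RefSeq start site on GRCm38.p6, written 5′ to 3′ on the gene's strand. They lie at chr5:136038246-136038495 (Upk3b, plus strand), chr7:81992300-81992549 (Bnc1, minus strand) and chr14:13284530-13284779 (Synpr, plus strand). Capitals mark a match to GGAATG (reverse CATTCC), the core bound by TEAD factors of the Hippo pathway, or to GTGGGNG (reverse CNCCCAC), a core shared by WT1 and EGR factors.
Upk3b: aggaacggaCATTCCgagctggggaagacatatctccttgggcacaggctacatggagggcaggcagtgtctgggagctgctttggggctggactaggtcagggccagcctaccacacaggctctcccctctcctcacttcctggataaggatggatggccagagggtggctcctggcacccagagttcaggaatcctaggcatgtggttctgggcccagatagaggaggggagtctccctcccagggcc
Bnc1: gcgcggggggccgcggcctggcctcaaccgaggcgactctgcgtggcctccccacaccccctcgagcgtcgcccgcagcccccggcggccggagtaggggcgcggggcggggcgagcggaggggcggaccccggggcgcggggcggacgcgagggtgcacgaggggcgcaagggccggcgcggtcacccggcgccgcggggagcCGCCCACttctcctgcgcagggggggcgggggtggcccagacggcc
Synpr: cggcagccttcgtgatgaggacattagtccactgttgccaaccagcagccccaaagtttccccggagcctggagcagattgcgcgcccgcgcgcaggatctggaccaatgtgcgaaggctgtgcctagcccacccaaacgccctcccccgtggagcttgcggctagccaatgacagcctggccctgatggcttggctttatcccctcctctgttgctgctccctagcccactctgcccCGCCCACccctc
The match in Upk3b began 241 bases before the start site, that in Bnc1 46 and that in Synpr 12. On both strands, GGAATG was in 12.6% and GTGGGNG in 28.1% of 32851 promoter windows of the same length. Of the 27 genes of the rule and the ranking, 22 had a window. GGAATG was in 3 of these, Gpm6a, Lrrn4 and Upk3b, and GTGGGNG in 10, Bnc1, Cdh8, Cftr, Elavl2, Gm40331, Lrrn4, Pcdh15, Pcnx2, Slc26a3 and Wt1os. Cdh3, Gm29266, Gm30849, Upk1b and Wt1 were not matched. A match is a description of letters and not a bound site.

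Transcripts of other cell types were present in mesothelial nuclei in every mouse. The 12 cardiomyocyte markers summed to 8087 to 17657 UPM in WT and to 2998 to 13949 in Taz-KO mice, with none of the 12 at 0. This was a median of 0.374 times their level in other barcodes. The list includes Ryr2 and Ttn, on which the rule set a ceiling, so this low level is in part fixed by the rule. Fibroblast markers stood at 0.845 times the level in other barcodes, with none of the 8 at 0. Macrophage markers stood at 0.548 times, endothelial markers at 0.827 times and pericyte markers at 0.584 times, also with none at 0. The macrophage list includes F13a1, Mrc1 and Cd163, which the rule capped as well. The Schwann cell list was 10.7 times as high, but through Cadm2, an adhesion gene, alone (288 UPM). Sox10, a transcription factor gene that defines Schwann cells, was at a median of 0.568.

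Fibroblast transcripts were compared both as levels and relative to each library. The summed level of the 8 fibroblast markers was 6209, 7827, 5339.7 and 2346 UPM in WT and 3787, 4553, 6552 and 1298 UPM in Taz-KO mice, which overlap, with mouse 5301 the lowest. Relative to the library, the order was another. The 5 genes that chose fibroblast barcodes (Pdgfra, Dcn, Abca8a, Tcf21 and Lum) took 0.765, 0.859, 0.737 and 0.713 times their library share in mesothelial nuclei of WT mice, and 0.403, 1.13, 1.01 and 1.11 times in Taz-KO mice. Mesothelial nuclei above the library share made up 26.1%, 30.1%, 26.5% and 20.9% in WT and 10.5%, 59.5%, 50.7% and 31.4% in Taz-KO mice. On this relative scale mouse 4685 was lowest, and the other 3 Taz-KO mice were above all WT mice.

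Mesothelial nuclei also differed among themselves. For each gene of at least 100 UPM, the variance between nuclei of a mouse was divided by that expected from depth alone, where 1 means no excess. At the same relative spread this ratio grows with the level of a gene, so it does not rank genes of different levels. The median over 2201 genes was 1.37. Rbfox1, an RNA-binding splicing regulator at 13099.7 UPM, had a ratio of 42.6. Sntg1, a scaffold protein of the dystrophin complex, had 16.1 at a level of 380 UPM, and Kcnd2, a potassium channel subunit, 14.2. The growth factor binding protein gene Igfbp5 had 12.9 and the phosphodiesterase gene Pde10a 11.6. Malat1 and Gm42418, abundant noncoding transcripts, had 40.1 and 64.9.

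Whether the share of mesothelial nuclei differed between genotypes was compared over mice. The share was 1.00%, 1.33%, 1.40% and 1.19% of kept barcodes in WT mice and 0.547%, 1.75%, 1.82% and 2.69% in Taz-KO mice. The Taz-KO mice 4910, 5300 and 5301 were above all WT mice, and mouse 4685 was below them. The lowest and highest shares were those of mice 4685 and 5301, with 3475 and 3899 kept barcodes against 21190 or more in each other library. These are shares of barcodes, which are not all nuclei that the study retained. The means were 1.23% ± 0.176 and 1.70% ± 0.882 (SD, n = 4 each), a difference of 0.472 percentage points that did not pass an exact two-sided permutation test (p = 0.4, where the smallest possible is 0.0286).

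The difference in share moved with the threshold and with further ceilings. With the same threshold of 20.8 UMIs per 10000 in each library, an alternative chosen after seeing the data, shares were 0.810%, 1.27%, 1.42% and 1.09% in WT and 1.32%, 1.72%, 2.57% and 2.77% in Taz-KO mice. Mouse 4685 then had 46 nuclei and lay within the WT range, and the difference was 0.9503 points (exact permutation p = 0.0571). With ceilings on fibroblast and endothelial genes together, shares were 0.540%, 0.748%, 0.901% and 0.779% in WT and 0.460%, 0.532%, 0.685% and 1.72% in Taz-KO mice. The difference was 0.107 points (exact permutation p = 0.971), and its positive sign came from mouse 5301, since the other 3 Taz-KO mice were below the WT mean of 0.742%. Leaving out mouse 4685 gave 0.858 points, with all 3 remaining Taz-KO mice above all WT mice and an exact permutation p of 0.0571, the smallest that 4 against 3 mice allow. Leaving out mouse 5301 gave 0.142 points (exact permutation p = 0.8), and an enrichment of 20 gave 0.0724 points (exact permutation p = 0.914). Among barcodes with at most 5% mitochondrial UMIs, the difference was 1.45 points (exact permutation p = 0.286), from 3, 0, 2 and 6 nuclei in WT and 13, 0, 2 and 96 in Taz-KO mice. It came from mice 4685 and 5301, at 3.49% and 2.83%, since mice 4910 and 5300 were at 0% and 0.233%, within the WT range. How far the transcripts of fibroblasts in these barcodes set the share was not tested.

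**Figure D2:**
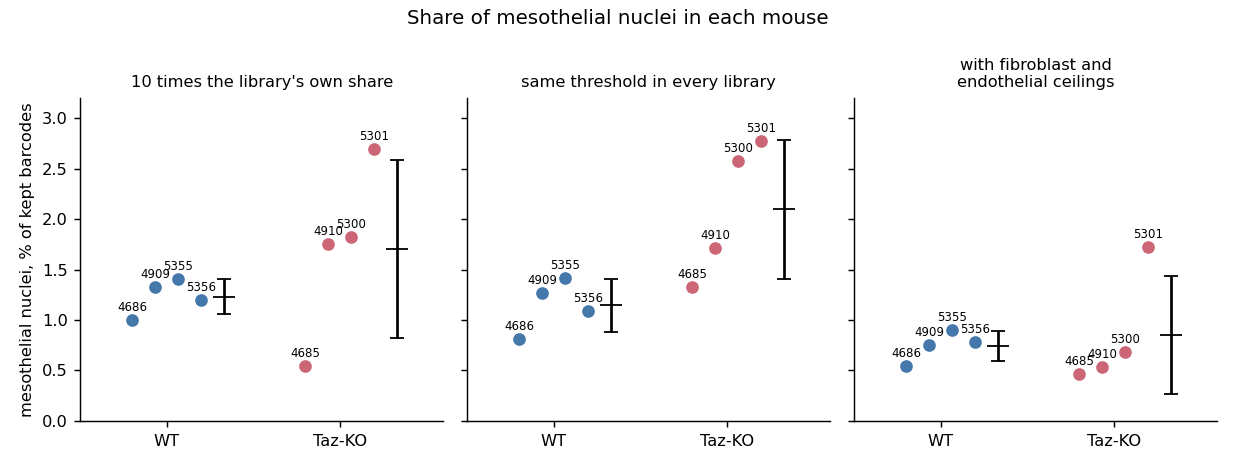
Share of mesothelial nuclei in percent of kept barcodes, 1 dot per mouse with the mean and SD of 4 mice, under the rule, under the same threshold in each library and with ceilings on fibroblast and endothelial genes. Taz-KO mouse 5301 is highest in all panels, and mouse 4685 moves from 0.547% to 1.32% between the first panels.

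For comparisons of genes between genotypes, the UMIs of the mesothelial nuclei of a mouse were summed and tested with edgeR over mice. Levels are then CPM, counts per 1000000 UMIs with library sizes scaled by the TMM method. Taz, the targeted gene (X:74281912-74290151, plus strand), was at 34.4, 34.9, 34.1 and 34.7 CPM in WT and at 24.5, 28.4, 20.04 and 24.7 CPM in Taz-KO mice. All Taz-KO mice were below all WT mice. The log2 fold change was -0.49 ± 0.19 (SE), which edgeR did not call after adjustment (adjusted p = 0.667). In other barcodes, it was -0.68, and counts of Taz remained there too. Taz overlaps Dnase1l1 on the opposite strand.

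Of 12277 genes tested, 8 passed an adjusted p of 0.05 (0.0652%), with 5 higher and 3 lower in Taz-KO. Those higher were Fam227b, Vmn2r3, Ostn, Synpr and Tex22, and those lower were the noncoding genes Gm26862, Gm20757 and Gm24474. The unadjusted p was under 0.05 for 795 genes (6.48%), of which 466 (3.80%) were higher and 329 (2.68%) lower. For 535 genes (4.36%), no WT mouse overlapped a Taz-KO mouse. In other barcodes, 1291 of 22408 genes passed (5.76%). These shares are not compared, since depth differed. Mesothelial nuclei held a mean of 1994549 non-mitochondrial UMIs per mouse, and whole libraries 147674638. At the study's thresholds, applied here to mice, edgeR called 0 genes and DESeq2 13, and DESeq2 called 31 at an adjusted p of 0.05.

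Synpr was the one gene of the 8 with a higher level in mesothelial nuclei than in other barcodes, at 38.8 times. It encodes synaptoporin, a membrane protein of synaptic vesicles (14:13284780-13616340, plus strand). Its level was 19.1, 11.1, 16.8 and 28.3 CPM in WT mice and 85.6, 57.3, 110.4 and 124 CPM in Taz-KO mice, from 151 and 560 UMIs in all. Each Taz-KO mouse was above each WT mouse, and mouse 5301 was the highest. Synpr rose by a log2 fold change of 2.33 ± 0.32 (SE, edgeR adjusted p = 0.0372).

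In other barcodes, Synpr stood at 0.973 and 1.92 UPM, with a log2 fold change of 0.87 (edgeR adjusted p = 0.208). The change in mesothelial nuclei was not shown to differ from that in fibroblasts (interaction 1.15 ± 0.36, edgeR adjusted p = 0.474) or in endothelial cells (1.07 ± 0.46, edgeR adjusted p = 1). The log2 fold change lay between 1.92 and 2.57 in every alternative run for it. The call was lost with ceilings on fibroblast and endothelial genes (1.92, edgeR adjusted p = 0.339), at an enrichment of 5 (edgeR adjusted p = 0.0646) or 20 (1.97, edgeR adjusted p = 0.217), with thinned sums (edgeR adjusted p = 0.126) and after subtraction of the library profile (edgeR adjusted p = 0.369). With 1 mouse left out, it was kept without WT mouse 5356 or Taz-KO mouse 5301 and lost without each of the other 6, at an edgeR adjusted p of 0.0557 to 0.304.

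The other 7 called genes were lower in mesothelial nuclei than in other barcodes, at 0.162 to 0.430 times their level, and each also changed there in the same direction. Fam227b, a little studied protein-coding gene (2:125983483-126152004, minus strand), was at 1.64, 3.71, 2.80 and 2.57 CPM in WT and at 15.3, 36.7, 29.4 and 22.2 CPM in Taz-KO mice. It rose by 3.33 ± 0.34 on the log2 scale (SE, edgeR adjusted p = 0.0106), and by 3.90 in other barcodes (7.68 to 118 UPM). It overlaps Fgf7 and Galk2 on the other strand. Tex22 (12:113074502-113088917, plus strand), named for its expression in testis, was at 2.73, 1.85, 2.80 and 1.29 CPM in WT and at 9.17, 19.6, 41.9 and 12.4 CPM in Taz-KO mice. It rose by 3.44 ± 0.48 (SE, edgeR adjusted p = 0.0372), against 3.82 in other barcodes.

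Ostn and Vmn2r3 were at or near 0 in WT mesothelial nuclei. Ostn encodes osteocrin, a secreted ligand of the natriuretic peptide clearance receptor (16:27307489-27351212, plus strand). It had 0 UMIs in each WT mouse and 4, 58, 21 and 3 UMIs in Taz-KO mice, at least 36.6-fold higher if the 4 WT mice together are set at the floor of 3 UMIs (edgeR adjusted p = 0.0304). In other barcodes, it stood at 0.137 and 24.9 UPM. Vmn2r3, a vomeronasal receptor gene (3:64257215-64289709, minus strand), had 1 UMI in all WT mice and 4, 180, 114 and 3 UMIs in Taz-KO mice (edgeR adjusted p = 0.0158). The ratio was 384, with a 95% interval of 68.4 to 15214 that covers counting error only. In other barcodes, it stood at 0.196 and 143 UPM. Vmn2r3 belongs to a large family of similar receptor genes, so reads may be split between copies.

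The 3 genes that fell are noncoding, with no known role. Gm26862 (7:93006982-93104789, plus strand) was at 15.8, 17.0, 10.7 and 25.7 CPM in WT and at 3.06, 1.22, 1.78 and 2.47 CPM in Taz-KO mice, a log2 fold change of -3.36 ± 0.44 (SE, edgeR adjusted p = 0.0315). It overlaps Fam181b on the same strand. Gm20757 (10:92171301-92375373, minus strand) had 10.8 ± 2.37 CPM in WT and 0.690 ± 0.862 CPM in Taz-KO mice (SD, n = 4 each, log2 fold change -3.19, edgeR adjusted p = 0.0436). Gm24474 (12:70650182-70693780, plus strand) had 28.6 ± 4.30 and 2.69 ± 3.14 CPM (SD, n = 4 each, log2 fold change -2.63, edgeR adjusted p = 0.0436), and overlaps Gm48866. In other barcodes, these 3 genes also fell, from 109 to 8.82, from 63.8 to 4.96 and from 144 to 12.6 UPM.

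Counts of these 7 genes thus moved in the same direction in the rest of the library, where the genes were more abundant. Part of the UMIs of a barcode can be RNA released from other nuclei. In 1 alternative, each library's own profile was subtracted, scaled to remove 7 cardiomyocyte genes as a sum. The scale was 58.4%, 74.6%, 62.3% and 30.5% of the UMIs of mesothelial nuclei in WT mice and 25.9%, 62.3%, 57.8% and 9.98% in Taz-KO mice. Counts that would turn negative were set to 0. Genes rarer in these nuclei than in the library can thus lose all counts. In edgeR, 0 genes then passed an adjusted p of 0.05, with 367 of 9050 at an unadjusted p under 0.05. The other 7 called genes were not among those tested, so the count gives no value for them. Synpr kept a log2 fold change of 2.02 (edgeR adjusted p = 0.369), and that of Taz became 0.03 (edgeR adjusted p = 1).

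**Figure D3:**
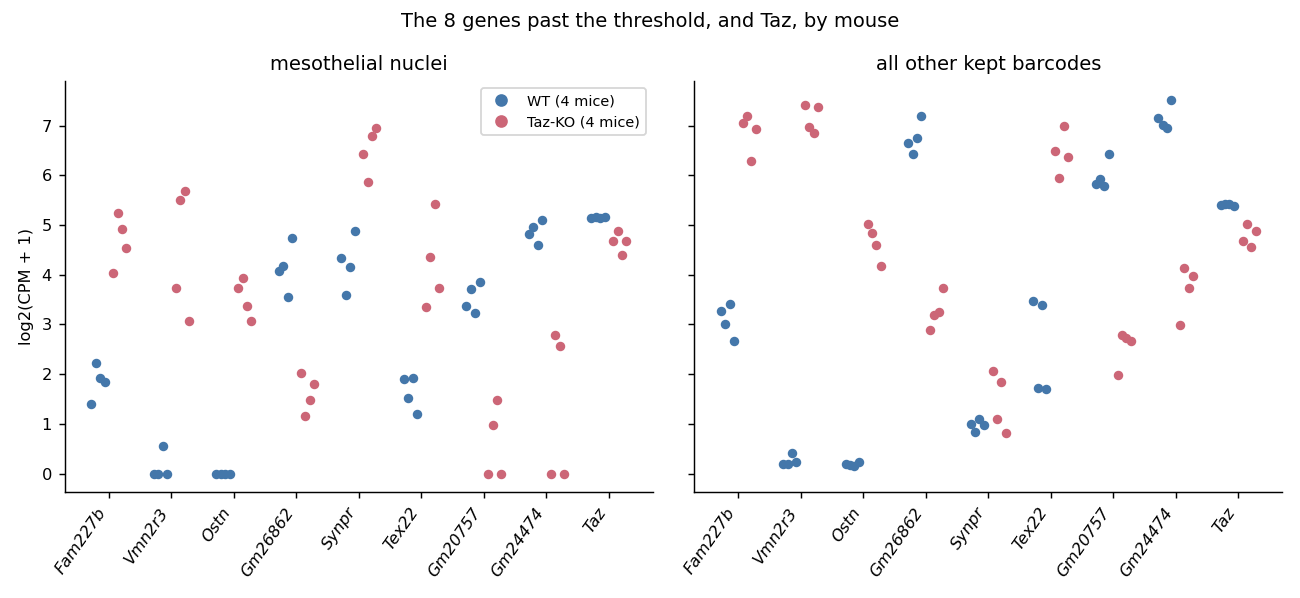
Levels of the 8 called genes and Taz by mouse, as log2 of CPM plus 1, in mesothelial nuclei (left) and in all other kept barcodes (right), with WT and Taz-KO mice in different colours. Synpr is at 11.1 to 28.3 CPM in WT and 57.3 to 124 CPM in Taz-KO mesothelial nuclei, while the other 7 called genes differ between genotypes in both panels.

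The calls depended on single libraries. Leaving out 1 mouse at a time gave 0 to 23 calls. There were 0 without WT mouse 4686, Taz-KO mouse 4910 or Taz-KO mouse 5300, 11 without Taz-KO mouse 4685 and 23 without Taz-KO mouse 5301. Without both Taz-KO mice of few barcodes, 4685 and 5301, 54 of 13151 genes passed (0.411%), 49 higher and 5 lower, and all 8 genes were among them. The Taz-KO group then held 2 mice, and their spread was pooled with that of the WT mice. Of the 54, 48 were lower in mesothelial nuclei than in other barcodes, and 47 were also called in the same direction there.

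The next 10 genes by p whose mice did not overlap between genotypes did not pass the threshold. Gsdme, a gasdermin that forms membrane pores when cleaved, was at 65.0, 62.4, 101 and 95.2 CPM in WT and at 174, 182, 280.1 and 274 CPM in Taz-KO mice (log2 fold change 1.497, edgeR adjusted p = 0.0668). It was 4.71 times as high in mesothelial nuclei as in other barcodes, where the log2 fold change was 0.90. Tat, tyrosine aminotransferase, was 25.3 times as high in mesothelial nuclei and had 10.3 ± 3.11 CPM in WT and 36.6 ± 13.3 CPM in Taz-KO mice (SD, n = 4 each, log2 fold change 1.63, edgeR adjusted p = 0.190).

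Tgfb2, the TGF-beta ligand of epicardial epithelial-mesenchymal transition, differed in the other direction. It was at 173, 212, 208 and 179 CPM in WT and at 110, 124, 106 and 116 CPM in Taz-KO mice. The groups did not overlap, but the log2 fold change of -0.75 ± 0.15 did not pass adjustment (SE, edgeR adjusted p = 0.216). In other barcodes, Tgfb2 stood at 69.8 and 105 UPM, with a log2 fold change of 0.52. The difference between mesothelial nuclei and endothelial cells was -0.84 ± 0.18 (edgeR adjusted p = 0.438). Hspa12a, a divergent member of the HSP70 family, had 73.2 and 35.3 CPM (log2 fold change -0.99, edgeR adjusted p = 0.175).

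The remaining 6 genes were higher in Taz-KO mice. Tenm4, a teneurin adhesion receptor, had 24.9 and 106 CPM (log2 fold change 2.18, edgeR adjusted p = 0.165), against 10.8 and 793 UPM in other barcodes. After subtraction of the library profile, its direction was reversed (-8.24, edgeR adjusted p = 0.551). Counts that would turn negative were cut off there, and Tenm4 was far lower in Taz-KO mesothelial nuclei than in other barcodes. This value is therefore not read as a fall. Usp50 had 30.3 and 68.5 CPM, the synaptic adhesion gene Lrrc4 51.2 and 109.9 CPM, Lrrtm2 1.66 and 6.93 CPM, Ube4bos1 15.6 and 36.5 CPM and 1600010M07Rik 38.9 and 74.3 CPM. Their adjusted p in edgeR lay between 0.0668 and 0.216. Ube4bos1 and 1600010M07Rik are antisense genes, whose reads cannot be told apart from those of their partners without strand. The same limit holds where Usp50, Lrrc4 and Lrrtm2 overlap Usp8, Snd1 and Ctnna1 on the other strand. It also holds for Gsdme (Mpp6), Hspa12a (Eno4), Tgfb2 (Gm29491) and Tenm4 (several genes), while Tat has no such overlap.

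**Figure D4:**
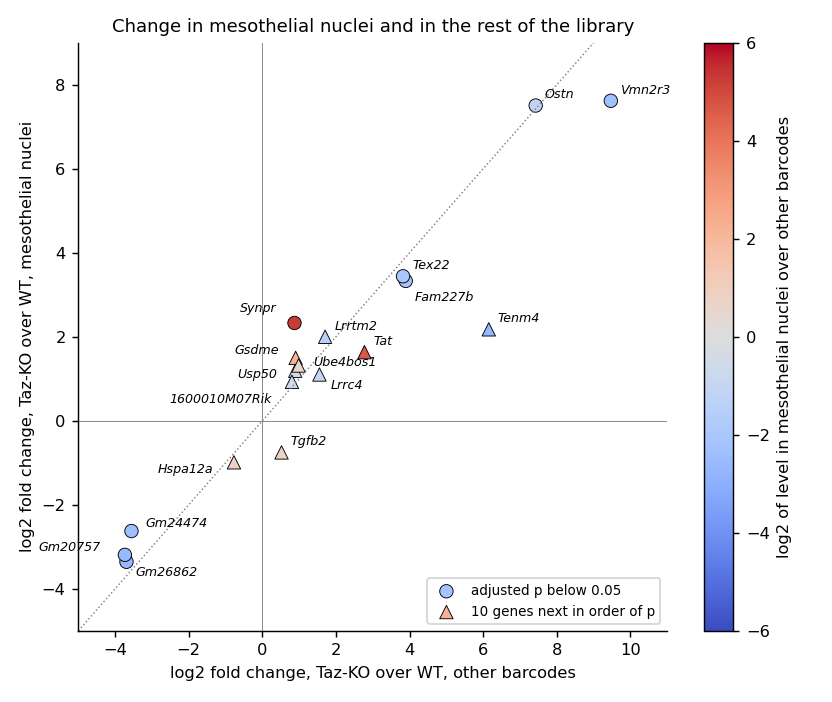
Log2 fold change of Taz-KO over WT in mesothelial nuclei against that in other kept barcodes, for the 8 called genes (circles) and the next 10 by p (triangles), coloured by the log2 ratio of their level in mesothelial nuclei to that in other barcodes. Synpr (2.33 and 0.87) lies above the diagonal, Tgfb2 has opposite signs, and the values of Ostn and Vmn2r3 depend on the prior count of the fit.

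Whether the fold change with genotype differed in mesothelial nuclei was tested by an interaction with fibroblasts and with endothelial cells of the same mice. Against fibroblasts, 2 of 14235 genes passed (0.014%), and against endothelial cells 2 of 14156 (0.0141%). Tfcp2l1, a grainyhead-like transcription factor, was called in both. In mesothelial nuclei, it was at 21.3, 17.3, 22.4 and 28.3 CPM in WT and at 30.6, 29.1, 28.1 and 34.6 CPM in Taz-KO mice, which overlap. In fibroblasts, its mean rose from 0.733 to 9.32 CPM (log2 fold change 3.68, edgeR adjusted p = 0.00962), and in endothelial cells from 1.11 to 8.999 CPM (3.08, edgeR adjusted p = 0.00635). The interaction was -3.29 ± 0.35 against fibroblasts (edgeR adjusted p = 0.000624) and -2.72 ± 0.38 against endothelial cells (edgeR adjusted p = 0.0259).

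Ptprt, a receptor tyrosine phosphatase, was the other gene against fibroblasts. It had 41.8 ± 16.7 CPM in WT and 61.0 ± 10.98 CPM in Taz-KO mesothelial nuclei (SD, n = 4 each), while its mean in fibroblasts rose from 1.89 to 22.02 CPM (log2 fold change 3.54, edgeR adjusted p = 0.00123). The interaction was -3.07 ± 0.31 (edgeR adjusted p = 0.000559). Tenm4 was the other gene against endothelial cells, where its mean rose from 11.7 to 189.8 CPM, with an interaction of -1.89 ± 0.26 (edgeR adjusted p = 0.0259). The interaction compares fold changes, and the rises of Tfcp2l1 and Ptprt in CPM were similar in the 3 sets of cells. Mean Tfcp2l1 rose from 22.3 to 30.6 CPM in mesothelial nuclei, and mean Ptprt rose from 5.28 to 22.8 CPM in endothelial cells. Tenm4 rose less in CPM in mesothelial nuclei (24.9 to 106) than in fibroblasts (10.8 to 153) or endothelial cells. In other barcodes, Tfcp2l1 stood at 0.813 and 27.3, Ptprt at 3.73 and 119 and Tenm4 at 10.8 and 793 UPM. All 3 genes were thus higher in WT mesothelial nuclei than in WT fibroblasts, and their counts in the rest of the library moved with the genotype. The part of this in the low levels of fibroblasts and endothelial cells was not tested. Both calls against fibroblasts held without each mouse in turn. Against endothelial cells, edgeR called 0 to 6 genes with 1 mouse left out (456 to 728 at an unadjusted p under 0.05), and 0 without WT mouse 4686, 5355 or 5356 or Taz-KO mouse 4910 or 5300.

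The lists held 0 genes called by edgeR, while DESeq2, which called 0.253% of all genes, called Tgfb2, Ddit3 and Asns among them. Of 23 tested mesothelial genes outside the rule, 20 had a positive log2 fold change in Taz-KO, and the median was 0.25, beside 0.01 and 51.0% higher over all 12277 genes. With the same threshold in each library, the median was 0.0964 with 18 of 23 higher. Without mouse 4685, it was -0.06 with 10 of 23 higher. After subtraction of the library profile, it was -0.25 with 8 of 22 higher, so the direction was not stable. The 7 rule genes, which chose the nuclei, had a median of 0.17, which was 0.01 without mouse 4685, -0.02 with the same threshold in each library and -0.30 after subtraction of the library profile. Junction and polarity genes (18 tested, median -0.03), Hippo pathway genes (17, -0.02), Wnt and Notch pathway genes (24, -0.0035) and epicardial ligands (29, -0.03) had medians near that of all genes. With 1 mouse left out, the first 3 of these medians took either sign, and after subtraction of the library profile the median of Wnt and Notch genes was 0.12 and that of junction and polarity genes -0.20. The most abundant members of these lists, whose mice overlapped between genotypes, were Pkhd1l1 (1795 and 2111 CPM), Sema3d (849 and 1012 CPM), Pard3 (407 and 408 CPM), Magi1 (550.4 and 419 CPM), Tead1 (521 and 472 CPM), Ankrd1 (156 and 324 CPM), Tcf7l2 (421 and 394 CPM), Rbpj (342 and 231 CPM) and Slit3 (1971 and 1790.3 CPM) in WT and Taz-KO, in the order of the lists. Other genes named from lists were chosen after their values were seen. Among the ligands, Bmp6 had 202 ± 38.0 and 113 ± 43.1 CPM (SD, n = 4 each, edgeR adjusted p = 0.544).

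Of 12 retinoic acid genes, 3 were higher and 9 lower, with a median of -0.20. Without mouse 4910, 6 were higher and the median was -0.09. Aldh1a2, the main retinoic acid synthase of the epicardium, had 300 ± 39.4 and 294 ± 96.0 CPM (SD, n = 4 each). Rarb, a receptor gene, had 48.1 ± 13.8 and 29.1 ± 12.3 CPM (edgeR adjusted p = 0.836). Of 19 genes of epithelial-mesenchymal transition, 9 were higher and 10 lower, with a median of -0.02, which was -0.21 without mouse 5300 and 0.08 after subtraction of the library profile. The most abundant, Cdh11 (938 and 725 CPM), a mesenchymal cadherin gene, and Zeb1 (559 and 464 CPM), did not pass. The unadjusted p was under 0.05 for Tgfb2, Twist2, Itgb6 and Zeb2, all lower (2.68% of all genes tested were). Itgb6, an integrin subunit that activates TGF-beta, was at 18.02, 32.7, 18.2 and 54.7 CPM in WT and at 6.12, 16.9, 12.02 and 2.47 CPM in Taz-KO mice (edgeR adjusted p = 0.595). Zeb2, a repressor of epithelial genes, had 467 ± 149 and 265 ± 97.6 CPM (edgeR adjusted p = 0.7004).

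The 26 extracellular matrix genes had a median of -0.03, with 12 higher. The median was -0.29 without mouse 5300 and 0.23 after subtraction of the library profile. The most abundant were Dcn (1907 and 1475 CPM), which encodes decorin, and the collagen gene Col3a1 (1363 and 1509 CPM). Has1, which makes the hyaluronan of mesothelial fluid, had 22.4, 15.4, 31.3 and 8.36 CPM in WT and 45.9, 29.1, 35.2 and 131 CPM in Taz-KO mice (log2 fold change 1.45, edgeR adjusted p = 0.652). The groups overlapped between WT mouse 5355 and Taz-KO mouse 4910, and mouse 5301 was the highest. Among laminins, Lamc1 had 435 ± 69.5 and 310 ± 70.5 CPM (SD, n = 4 each, edgeR adjusted p = 0.716).

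Complement and inflammation genes were higher more often than lower. Of 13 tested, 10 were higher, 5 of them at an unadjusted p under 0.05 (3.80% of all genes tested), and the median log2 fold change was 0.40 against -0.02 in other barcodes. C4b was at 7.65, 26.2, 21.96 and 20.6 CPM in WT and at 42.8, 36.7, 40.5 and 47.0 CPM in Taz-KO mice (log2 fold change 1.07, edgeR adjusted p = 0.438). Il33, an alarmin kept in the nuclei of barrier cells, was at 138.2, 104, 85.5 and 69.5 CPM in WT and at 162, 164, 138.5 and 252 CPM in Taz-KO mice (0.83, edgeR adjusted p = 0.447). Neither C4b nor Il33 passed adjustment. Both were among the 4 of 13 genes whose mice did not overlap between genotypes, beside 4.36% of all genes tested. For Il33, WT mouse 4686 and Taz-KO mouse 5300 were nearly equal. C1ra, a protease of the classical pathway, Cfb, of the alternative pathway, and C3, the central component, had log2 fold changes of 0.73, 0.65 and 0.52. Without mouse 4685, the median was 0.25 with 10 of 13 higher.

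Genes of the integrated stress response, which raises amino acid synthesis and transfer RNA charging under mitochondrial stress, had a positive log2 fold change in 22 of 22 cases, beside 51.0% of all genes tested. The unadjusted p was under 0.05 for 13 of them (3.80% of all genes were higher at this p), with a median log2 fold change of 0.85 against 1.13 in other barcodes. In edgeR, 0 passed adjustment, and in DESeq2 2 did (0.253% of all genes did), Asns and Ddit3. The most abundant, the transcription factor gene Atf4 (46.1 and 72.7 CPM) and Gars (37.3 and 65.2 CPM), a transfer RNA synthetase gene, were among those that did not pass. Asns, asparagine synthetase, was at 5.46, 2.47, 7.48 and 3.22 CPM in WT and at 24.5, 35.3, 39.2 and 7.42 CPM in Taz-KO mice (2.71, edgeR adjusted p = 0.0721). Mthfd2, of mitochondrial folate metabolism, was at 4.37, 7.41, 8.88 and 9.65 CPM in WT and at 15.3, 52.4, 58.8 and 4.94 CPM in Taz-KO mice (2.40, edgeR adjusted p = 0.275). Mouse 5301 lay within the WT range for both genes, with 3 and 2 UMIs. The summed level of the whole list was 468, 496, 489 and 405 UPM in WT and 686, 1043, 1224 and 395 UPM in Taz-KO mice, so it was not raised in mouse 5301, which was below each WT mouse. Without mouse 5300, the median log2 fold change was 0.56 with 20 of 22 higher.

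These genes stood at a median of 0.712 times their level in other barcodes. After subtraction of the library profile, 11 of 16 were higher, with a median of 0.40. Without Taz-KO mice 4685 and 5301, 11 of 29 passed in edgeR, beside 0.411% of all genes tested, namely Asns, Mthfd2, Phgdh, Chac1, Trib3, Gdf15, Fgf21, Aldh1l2, Ddit3, Gars and Nars, with a median of 1.18. How much of this belonged to the mesothelial nuclei and how much to RNA of other cells was not tested beyond these values.

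Fatty acid oxidation genes were lower in 22 of 23 cases, with a median of -0.51 against -0.60 in other barcodes. The most abundant, Hadhb (214 and 167 CPM) and Hadha (225 and 147 CPM), encode the trifunctional protein. Acaa2, of the last step of beta-oxidation, had 182 ± 43.2 and 97.5 ± 36.8 CPM (SD, n = 4 each, log2 fold change -0.84, edgeR adjusted p = 0.522). Cardiomyocyte markers, among them Ryr2 and Ttn with a ceiling in the rule, were lower in 12 of 12 cases, with a median of -0.50. Their summed level was lowest in mice 4685 and 5301. Without these mice, 5 of 23 oxidation genes and 6 of 12 cardiomyocyte markers were higher, with medians of -0.18 and -0.04. After subtraction of the library profile, 6 of 17 oxidation genes were higher, with a median of -0.22. The median was -0.31 without mouse 5301, and that of cardiomyocyte markers -0.85 without mouse 4910. How much of the lower level of oxidation genes belonged to cardiomyocyte RNA was not tested beyond these values. Of the markers of other cell types, 2 of 8 fibroblast, 1 of 8 endothelial, 1 of 6 lymphatic endothelial, 4 of 8 macrophage, 0 of 6 pericyte and 4 of 5 smooth muscle markers were higher, with medians of -0.42, -0.36, -0.44, -0.06, -0.68 and 0.68. These rested in part on single mice and on the setting. Without mouse 4910, the smooth muscle median was 0.02. Without mouse 5301, the fibroblast, endothelial and pericyte medians were -0.14, -0.11 and -0.41, and the macrophage median turned to 0.04. The lymphatic endothelial median was -0.22 without WT mouse 4686. After subtraction of the library profile, the fibroblast median was 0.04 (4 of 7 higher), the pericyte median 0.03 (2 of 3 higher) and the 1 smooth muscle marker tested -0.17. With the same threshold in each library, the endothelial and lymphatic endothelial medians were -0.00017 and 0.10. Few markers of dendritic cells (1), adipocytes (1), T lymphocytes (2) and B lymphocytes (1) could be tested, with medians of -0.57, -0.25, -1.57 and -0.65.

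Cardiolipin genes had a median of 0.05, with 10 of 17 higher. Crls1, cardiolipin synthase, had 47.1 ± 8.94 and 68.9 ± 27.6 CPM (SD, n = 4 each, edgeR adjusted p = 0.842). Heat shock genes were higher in 12 of 14 cases, with a median of 0.30, immediate early genes in 7 of 14, with a median of 0.04, and cell cycle genes in 5 of 6, with a median of 0.15. Without WT mouse 5356, the heat shock median was 0.11 (10 of 15 higher) and the cardiolipin median turned to -0.03. With 1 mouse left out, the medians were -0.17 (without mouse 5300) to 0.32 (without WT mouse 4686) for immediate early genes and 0.03 (without mouse 5300) to 0.34 (without mouse 4685) for cell cycle genes. Their most abundant members were Hsp90ab1 (311 and 355 CPM), Klf4 (102 and 134 CPM) and Pcna (14.7 and 17.2 CPM). Of 17 clock genes, 13 were higher, with a median of 0.22. This direction was gone without WT mouse 5355 (9 of 17 higher, median 0.0011) or WT mouse 5356 (8 of 18 higher, median -0.0041). The most abundant was Tef (199.9 and 227 CPM). Arntl, which encodes the clock activator BMAL1, was at 13.7, 10.2, 66.8 and 114 CPM in WT and at 3.06, 11.999, 16.03 and 9.89 CPM in Taz-KO mice (log2 fold change -2.03, edgeR adjusted p = 0.707). WT mice 5355 and 5356 were high, and WT mice 4686 and 4909 were at the level of Taz-KO mice.

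**Figure D5:**
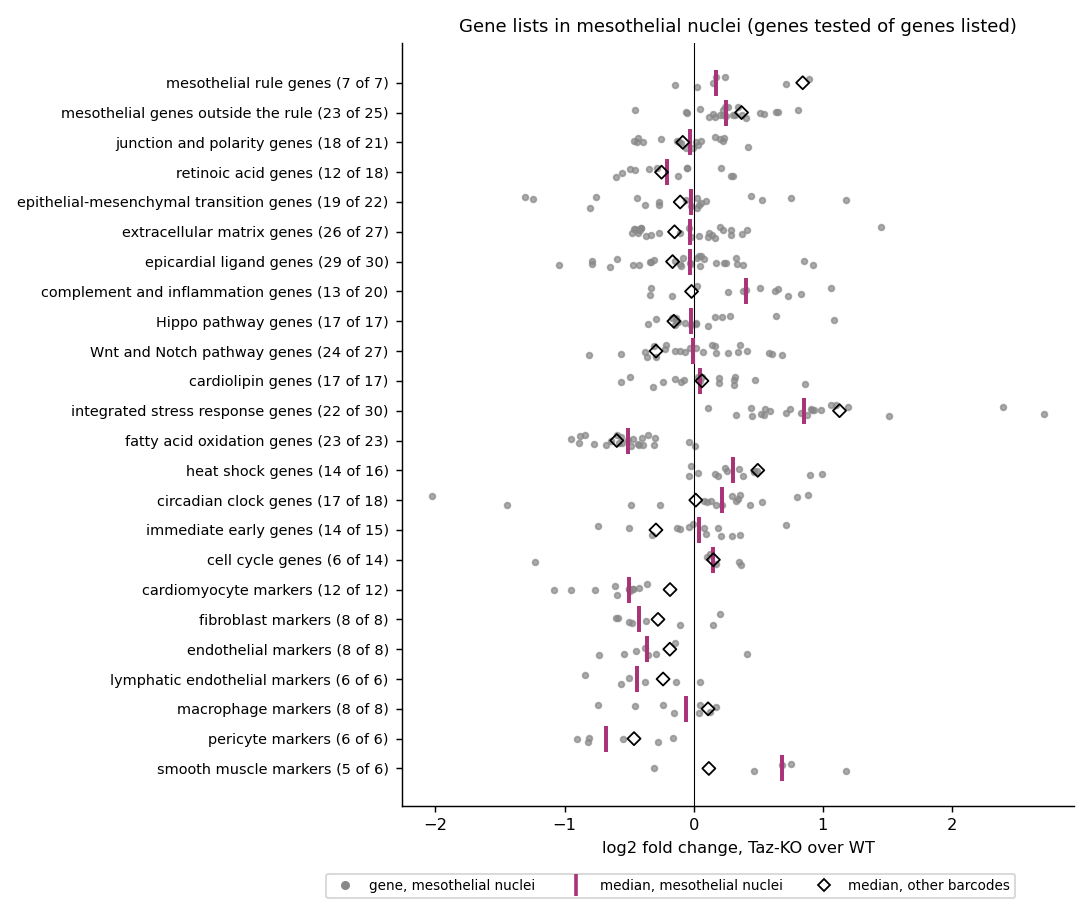
Log2 fold change of Taz-KO over WT of the tested genes of each list in mesothelial nuclei (dots), with their median (bar) and the median of the same list in other barcodes (diamond). Integrated stress response genes lie to the right of 0 (median 0.85), and 22 of 23 fatty acid oxidation genes and all 12 cardiomyocyte markers to the left (medians of -0.51 and -0.50), with no gene of any list past the threshold.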

How the data were processed

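Nuclei from cryopreserved whole hearts were profiled with 10x Genomics 3' v3.1 chemistry and sequenced on 1 flow cell. The authors aligned the reads to mm10 and counted UMIs with introns included in Cell Ranger 6.0.1, and the deposited matrices hold these raw counts per gene and barcode. The ambient RNA and doublet steps of the study came after these counts, and most libraries hold more barcodes than the study's approximate number of nuclei per heart. The study retained fewer nuclei than the 167504 barcodes kept here. No doublet caller was run here. Doublets were limited by the ceilings of the rule and by an alternative with further ceilings.

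Barcodes with at least 800 UMIs outside the 13 mitochondrial genes were kept. Members were found by their share of UMIs on marker genes relative to the library. Fibroblast (Pdgfra, Dcn, Abca8a, Tcf21, Lum) and endothelial barcodes took at least 1.5 times the library share of their own genes and at most 1 times that of the other of the pair, with the same minimum UMIs and ceilings. Members were left out of both. For each mouse, UMIs of members were added up and fitted in edgeR 4.0.16 under R 4.3.3 (TMM, filterByExpr, robust quasi-likelihood, Benjamini-Hochberg adjusted p below 0.05 over all genes tested). Interactions with fibroblasts and endothelial cells had the mouse as a block. Shares were compared by an exact two-sided permutation test over mice with scipy 1.17.1. The study tested nuclei in a model adjusted for the individual mouse, whereas mice are the replicates here. DESeq2 1.42.0 was an alternative. Scripts were checked on simulated data.

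Named genes are the 7 rule genes, Taz, the 20 genes with the highest ratio to other barcodes, all called genes, the 10 next genes by p whose mice did not overlap, called interactions, and the most abundant members of gene lists. Other genes named from lists were chosen after their values were seen, and some items are not reported here. Lists cover mesothelial, junction, retinoic acid, epithelial-mesenchymal transition, matrix, ligand, complement, Hippo, Wnt and Notch, cardiolipin, stress response, fatty acid oxidation, heat shock, clock, immediate early and cell cycle genes and markers of other cell types. The members and lists were chosen with earlier results of these data known. Gene positions are those of GENCODE vM21 on GRCm38, and promoters are from RefSeq. Depth differed, with 329300 to 4080932 UMIs summed per mouse, so values of few UMIs in mouse 4685 are the least precise, and intervals cover counting error only.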

Additional observations from a re-analysis of the deposited data

Results flagged for a closer look

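Vmn2r3 stood at 0.467 CPM in WT mouse 5355 and at 0 in the other 3 WT mice, a gap that spans the whole range of the group. It rests on 1 UMI. With 1 UMI in a group, the gap spans the whole range whichever mouse holds that UMI. Of 54 groups of 4 mice examined, this was the 1 with such a gap. The usual rate of about 1 in 20 by chance does not apply to it.

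The log2 fold change with genotype in mesothelial nuclei differed from that in fibroblasts for Tfcp2l1 (difference -3.29, edgeR adjusted p = 0.000624) and Ptprt (-3.07, edgeR adjusted p = 0.000559). Against endothelial cells, it differed for Tfcp2l1 (-2.72, edgeR adjusted p = 0.0259) and Tenm4 (-1.89, edgeR adjusted p = 0.0259). In CPM, the rises of Tfcp2l1 and Ptprt were similar in mesothelial nuclei and in the cells compared. In WT mice, all 3 genes were higher in mesothelial nuclei than in the cells compared, and in other barcodes all 3 were higher in Taz-KO. The part of RNA from other cells in these differences was not tested.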

How the results depend on the processing

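In place of 8 genes, edgeR called 15 with no filter beyond 10 UMIs, 3 at an enrichment of 20, 54 without mice 4685 and 5301, and 0 each with ceilings on fibroblast and endothelial genes, with sums thinned to the smallest, after subtraction of the library profile and at the study's thresholds. The counts at an unadjusted p under 0.05 were 535, 375, 367 and 795 in these last 4. A gene that the filter of a fit left out could not be called there. DESeq2 called 31, and all 8 were among them. Leaving out 1 mouse gave 0 to 23 calls. Fold changes that differed from fibroblasts numbered 43 with no filter, 82 without mice 4685 and 5301 and 2 to 13 with 1 mouse left out, in place of 2. Against endothelial cells, they numbered 5, 11 and 0 to 6.

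After subtraction of the library profile, the log2 fold change of Taz turned to 0.027 and that of Tenm4 to -8.24, neither called. Counts that would turn negative were cut off in this subtraction, so the value of Tenm4 is not read as a fall. The cause of the value of Taz was not tested. The difference in share stayed positive in every alternative, from 0.0724 points at an enrichment of 20 to 2.56 as a share of mesothelial, fibroblast and endothelial barcodes, and at 0.142 to 0.858 points with 1 mouse left out, where 4 against 3 mice cannot give an exact permutation p below 0.0571. Without mice 4685 and 5301 the smallest possible is 0.133, so neither design could pass. No alternative with 4 mice in each group passed. For the 8 called genes, 125 values under alternatives kept their direction, and 55 of them no longer passed. Genes not tested in an alternative gave no value, as all but Synpr after subtraction of the library profile. Depth limits what can be seen in mouse 4685, with 19 mesothelial nuclei. WT and Taz-KO mice could not be paired because the groups share no replicate numbers.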
